A study of Mus musculus with 18 samples.

Results

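The genes that import arginine, split it and turn its ornithine into polyamines were followed in bone marrow-derived macrophages (BMDM). The cells had received vehicle, an inhibitor of choline uptake or an inhibitor of choline kinase. The 10 members were taken by symbol from the count table, which lists 55385 genes, and were grouped by role as arginine importers (*Slc7a1*, *Slc7a2*), arginases (*Arg1*, *Arg2*), the inducible nitric oxide synthase and the enzyme that recycles its citrulline (*Nos2*, *Ass1*), the enzymes that use ornithine (*Odc1*, *Oat*) and the polyamine synthases (*Srm*, *Sms*). All BMDM came from female C57BL/6J mice of 12 weeks, were grown with L-929 supernatant and were used at day 7. They received vehicle (Veh, DMSO), 250 µM hemicholinium-3 (HC3, which blocks choline uptake) or 5 µM RSM-932a (RSM, which inhibits choline kinase) for 24 h, and for the following 24 h either stayed naïve, here M[0], or were exposed to IL-4 at 20 ng/mL, here M[IL-4]. Each of the 6 groups had 3 libraries from 3 mice, 18 libraries in all.

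Macrophages take up arginine through cationic amino acid transporters and either make nitric oxide from it or split it with arginase into urea and ornithine. Ornithine is then decarboxylated to putrescine, which spermidine synthase and spermine synthase extend to spermidine and spermine, or it is converted towards glutamate and proline. In mouse macrophages, strong expression of *Arg1* is a textbook mark of the IL-4 state, whereas *Nos2* marks cells exposed to bacterial products and interferon. Choline uptake and choline kinase belong to the synthesis of phosphatidylcholine and are not steps of arginine metabolism.

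Libraries held 17457796 to 19522255 counts, at which 3 counts in 1 library correspond to 0.153 to 0.176 CPM (the gene's share of a library's counts in parts per 1e+06). Expression is given in CPM scaled by edgeR's TMM factors, with the mean ± SD of 3 libraries, and log2 fold changes are given ± SE. A gene was tested if it had at least 10 counts in at least 2 libraries (14979 genes, among them 9 of the 10 members), and it was called when the edgeR false discovery rate (FDR) over all tested genes was under 0.05 and the change was at least 1 in size on the log2 scale. The macrophage markers *Adgre1* and *Csf1r* had group means of 1218 to 2837 CPM and 1519 to 3967 CPM. Summed over 10 macrophage markers, M[0] libraries held 20890 to 21890 CPM with Veh, 9007 to 10030.1 CPM with HC3 and 16063 to 17433 CPM with RSM. In M[IL-4] these sums were 12330.3 to 12642 CPM with Veh, 7887 to 9011 CPM with HC3 and 11233 to 13519 CPM with RSM. Summed over 7 stromal markers, of which 6 were tested, M[0] libraries held 527 to 888 CPM with Veh, 1233 to 1699 CPM with HC3 and 1036 to 1486 CPM with RSM, and 285 to 665 CPM, 563 to 1061 CPM and 540.5 to 1077 CPM in the same order in M[IL-4]. Of 8 neutrophil markers, 3 were tested, *S100a9*, *Elane* and *Retnlg* had no counts in any library, and libraries summed to 43.9 to 121 CPM over the list, nearly all of it from *Csf3r* and *Mmp8*, with the lowest sums in the HC3 libraries of either polarization. In M[0] the macrophage and stromal sums did not overlap between Veh and either inhibitor. In M[IL-4] the macrophage sum was lower with HC3, whereas the RSM range enclosed that of Veh and the stromal ranges overlapped. Within the stromal list *Dcn* went against the sum, at no less than 6.35 CPM in Veh M[0] and a mean of 2.99 CPM in RSM M[0]. The M[0] means of *Pdgfra* were also lower with the inhibitors, at 22.1 CPM with Veh, 19.0 CPM with HC3 and 16.2 CPM with RSM, with overlapping ranges. The part of these markers in the results that follow was not tested. In these bulk samples, fewer cells of a type and less RNA per cell cannot be told apart.

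Short promoter windows are shown for the 3 members in which a searched motif was found, *Slc7a1*, *Ass1* and *Sms*. For *Slc7a1* and *Sms*, 1 of the 2 promoters given held it. The windows were picked by motif and not by the response to an inhibitor. *Odc1*, which also differed between inhibitor and vehicle, held no searched motif, and *Ass1* (higher with the inhibitors) and *Sms* (lower) held the same one. RefSeq promoters (GRCm38.p6, 250 bases before to 50 after a start) were given for 5 of the 10 members, namely *Slc7a1*, *Ass1*, *Odc1*, *Oat* and *Sms*. They were searched on both strands for TTC and GAA separated by 3 bases (TTCNNNGAA) or by 4 bases of any kind, palindromes bound by STAT factors, for TGATGNAA (a C/EBP-ATF composite) and for CACGTG (an E-box). Each window is written on the gene's strand with the motif in capitals, and no other searched motif lay within it.
*Slc7a1*, chr5:148392942-148392971, minus strand: agggccactcTTCAAAGAAgccctttgaag
*Ass1*, chr2:31470222-31470251, plus strand: cgcgcccgtcccCACGTGtcccaggttcct
*Sms*, chrX:157492466-157492495, minus strand: cccagcggggttCACGTGcatttaaagaaa
The motif in *Slc7a1* lay 146 bases upstream of a RefSeq start within the gene, and its window overlapped an annotated exon. That of *Ass1* lay 36 bases upstream of the start, in a window that overlapped an annotated exon, and that of *Sms* lay 196 bases upstream, outside the annotated exons. Of all 32851 RefSeq promoters, 8.3% held TTCNNNGAA, 7.15% held CACGTG, 6.95% held the STAT palindrome with 4 bases between TTC and GAA and 3.97% held TGATGNAA. These matches describe letters and not binding.

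**Figure D1:**
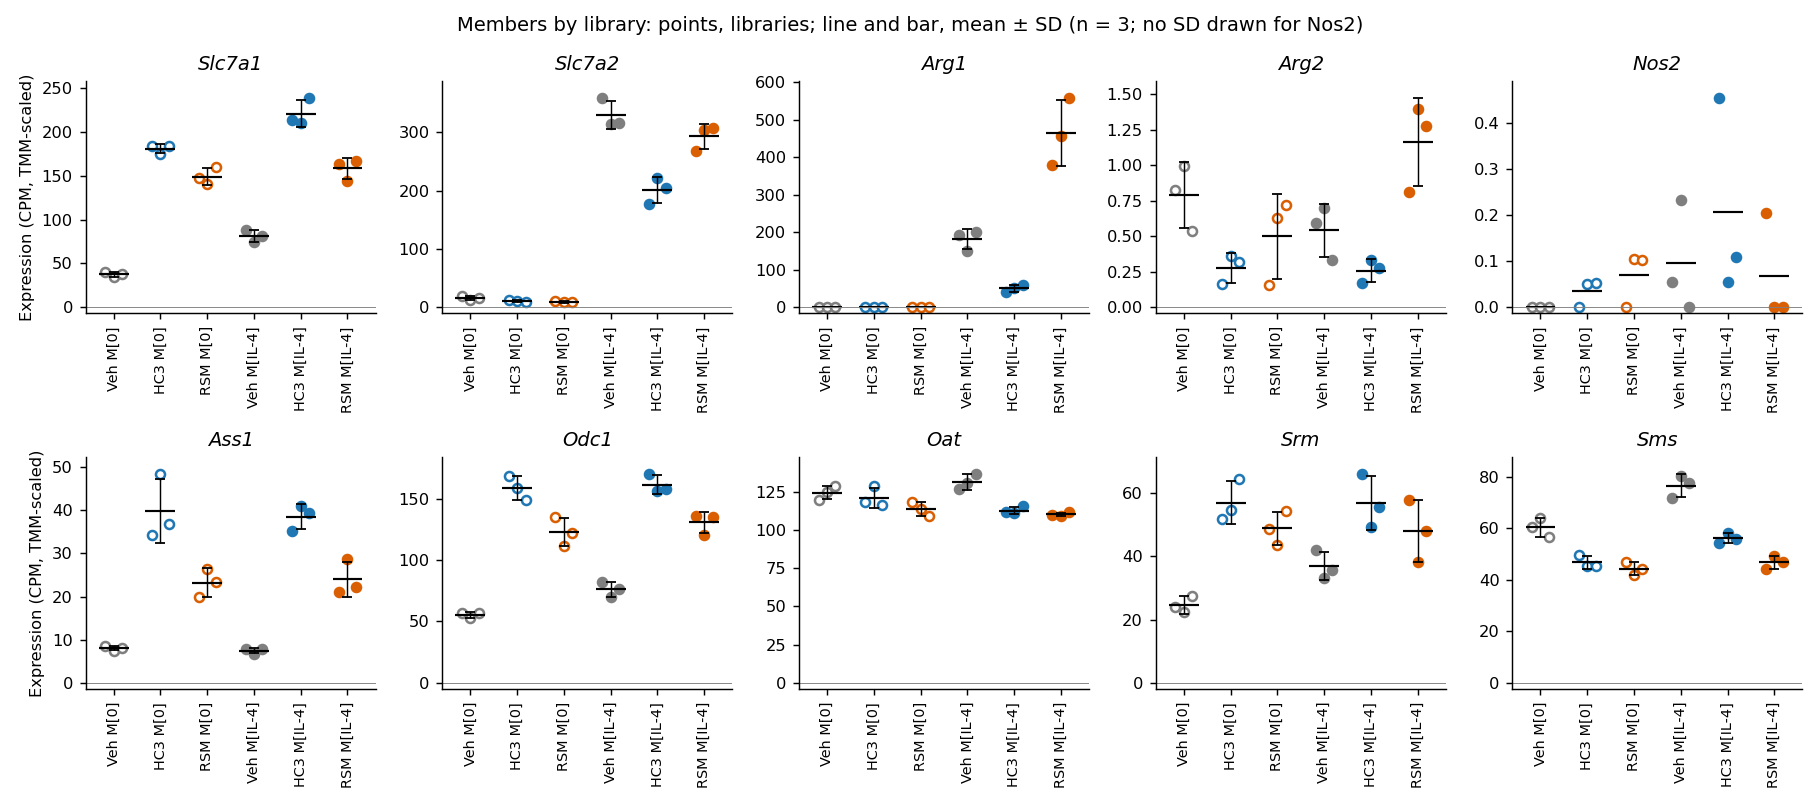
Expression of the 10 members in each library, in CPM scaled by TMM on linear axes, for Veh (grey), HC3 (blue) and RSM (orange) in M[0] (open) and M[IL-4] (filled). Points are libraries, horizontal lines are means and bars are the SD of 3 libraries, with no SD drawn for *Nos2*. *Slc7a1*, *Ass1* and *Odc1* were higher in all libraries with either inhibitor than in the vehicle libraries of the same polarization, whereas *Arg1* in M[IL-4] was lower with HC3 and higher with RSM.

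HC3 changed 5 of the 9 tested members in M[0], where 12% of all tested genes were called. *Slc7a1*, *Ass1*, *Odc1* and *Srm* rose (4 members, against 5.93% of all genes called upward) and *Arg2* fell (1 member, against 6.11% called downward). RSM changed 3 members in M[0], *Slc7a1*, *Ass1* and *Odc1*, all upward (11.6% of all genes were called, 5.05% upward). In M[IL-4], HC3 changed 4 members (10.3% of all genes), with *Slc7a1*, *Ass1* and *Odc1* higher (4.72% called upward) and *Arg1* lower (5.53% called downward). RSM changed 2 members in M[IL-4], *Arg1* and *Ass1*, both upward (11% of all genes, 5.05% upward), and this count was 4, with *Slc7a1* and *Arg2* added, without replicate 1 and also with scaling by library size only.

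At the FDR alone, 7 of the 9 members passed with HC3 in M[0] (44.1% of all tested genes), 6 with RSM in M[0] (41.1%), 8 with HC3 in M[IL-4] (38.8%) and 7 with RSM in M[IL-4] (38.6%). The libraries of an inhibitor and of Veh did not overlap for 6 members with HC3 in M[0] (52.2% of all tested genes), 7 with RSM in M[0] (51.5%), 9 with HC3 in M[IL-4] (45.9%) and 8 with RSM in M[IL-4] (46.6%). Separation without overlap was therefore common among all genes, so it is given for single members as a description. The 9 tested members moved in both directions. The median log2 fold change with HC3 was -0.04 in M[0] and -0.22 in M[IL-4], against 0.02 and 0.01 over all tested genes. With RSM it was 0.77 and 0.78, against 0.01 and 0.02, and the M[0] value is that of *Arg1*, which rests on 7 counts with Veh and 13 with RSM. The comparisons of HC3 and of RSM with vehicle share the same vehicle libraries.

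**Figure D2:**
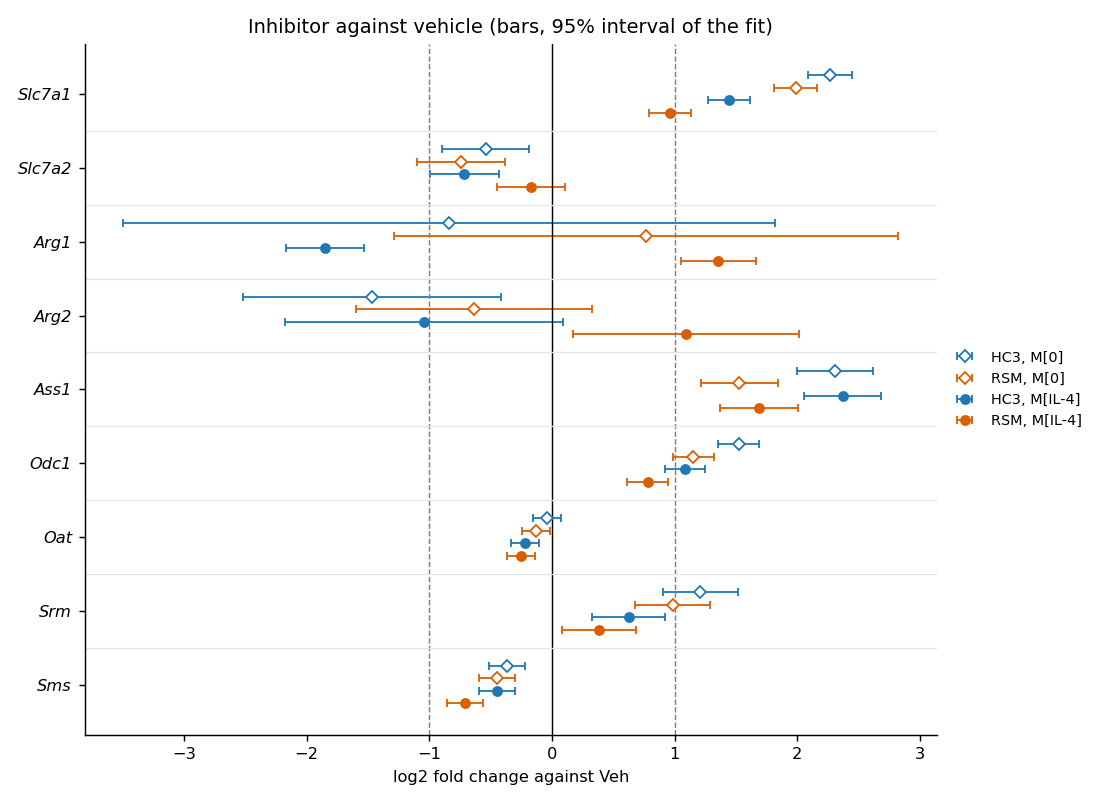
Log2 fold change of each tested member with HC3 (blue) or RSM (orange) against Veh in M[0] (open diamonds) and M[IL-4] (filled circles), where bars are 95% intervals of the edgeR fit. Dashed lines mark the fold threshold of 1 on the log2 scale. *Slc7a1*, *Ass1* and *Odc1* lay above 0 in all 4 comparisons and *Sms* below 0, while the intervals of *Arg1* in M[0] spanned 0 widely.

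*Slc7a1* (ENSMUSG00000041313, chr5:148327410-148399904, GRCm38) encodes the cationic amino acid transporter that most cells use to import arginine, and it was higher with both inhibitors. Its M[0] libraries had 40.3, 34.2 and 38.5 CPM with Veh, 185, 175 and 184 CPM with HC3, and 147, 140.5 and 159.7 CPM with RSM. Its M[IL-4] libraries had 88.5, 74.0 and 81.6 CPM with Veh, 214, 211 and 239 CPM with HC3, and 164, 145 and 167 CPM with RSM. No inhibitor library overlapped the vehicle libraries of its polarization, and the HC3 libraries lay above the RSM libraries in both. The log2 fold change with HC3 was 2.27 ± 0.08 (SE) in M[0] (edgeR FDR = 2.08e-13) and 1.44 ± 0.08 in M[IL-4] (edgeR FDR = 9.46e-11). With RSM it was 1.99 ± 0.08 in M[0] (edgeR FDR = 2.03e-12) and 0.96 ± 0.08 in M[IL-4] (edgeR FDR = 1.77e-08). The last value is just under the fold threshold, and it reached 1.01 without replicate 1 and 1.01 with scaling by library size only.

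*Slc7a2* (ENSMUSG00000031596, chr8:40862396-40922308), the second cationic amino acid transporter of macrophages, was strongly induced by IL-4 and differed from vehicle with the inhibitors by less than the fold threshold. Levels in M[0] were 20.0, 11.6 and 15.9 CPM with Veh, 12.9, 10.2 and 9.47 CPM with HC3, and 11.5, 8.42 and 8.52 CPM with RSM. Levels in M[IL-4] were 358, 315 and 317 CPM with Veh, 177, 222 and 204 CPM with HC3, and 268, 304 and 308 CPM with RSM. Every M[IL-4] library was far above every M[0] library, and within M[IL-4] the HC3 libraries were the lowest and the Veh libraries the highest, without overlap. IL-4 induced it by 4.38 ± 0.16 on the log2 scale with Veh (edgeR FDR = 3.97e-13), 4.21 ± 0.16 with HC3 and 4.95 ± 0.17 with RSM.

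No inhibitor comparison of *Slc7a2* reached the fold threshold. With HC3 the log2 fold change was -0.54 ± 0.17 in M[0] (edgeR FDR = 0.0142) and -0.72 ± 0.13 in M[IL-4] (edgeR FDR = 0.000291). With RSM it was -0.74 ± 0.17 in M[0] (edgeR FDR = 0.00185) and -0.17 in M[IL-4], with a 95% interval of -0.45 to 0.11 (edgeR FDR = 0.344). That last FDR was 0.0404 in the fit with a replicate block within each polarization, which takes same-numbered libraries as paired, and without replicate 3 the M[0] values had FDRs of 0.193 with HC3 and 0.0668 with RSM. Since 6.95% of its exonic length overlaps *Gm26584* on the opposite strand and no strand setting is stated, some counts may belong to either gene.

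Per kb of exon, the balance of both importers stood apart between the vehicle and inhibitor libraries of a polarization. The ratio of *Slc7a2* to *Slc7a1* in M[0] was 0.524 ± 0.0990 with Veh, 0.0758 ± 0.0119 with HC3 and 0.0806 ± 0.0162 with RSM. The same ratio in M[IL-4] was 5.13 ± 0.234 with Veh, 1.15 ± 0.154 with HC3 and 2.35 ± 0.296 with RSM (SD over 3 libraries throughout). *Slc7a1* thus had the higher level per kb in every M[0] library and *Slc7a2* in every M[IL-4] library, by the narrowest margin with HC3, where the lowest ratio was 1.04. With HC3 in M[IL-4] this order depends on the exon lengths used. In CPM, *Slc7a1* was there the higher in replicates 1 and 3 (214 and 239 against 177 and 204), and *Slc7a2* in replicate 2. The pairs of genes set against each other as ratios were chosen after their values were seen, so no test is given.

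**Figure D3:**
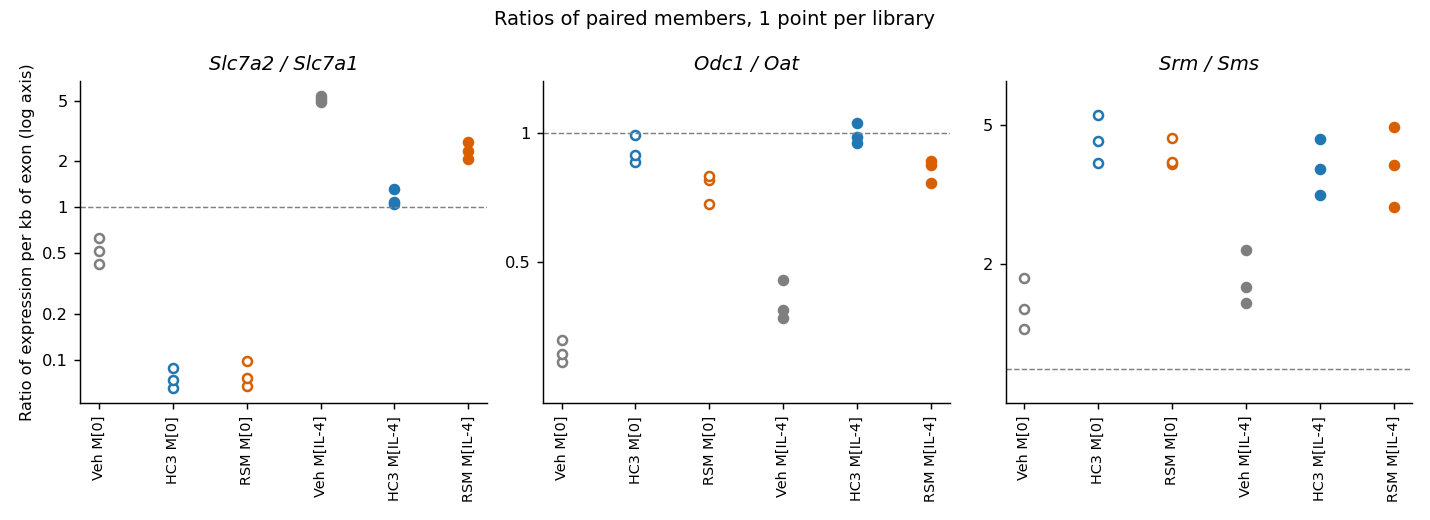
Ratios of expression per kb of exon for *Slc7a2* to *Slc7a1*, *Odc1* to *Oat* and *Srm* to *Sms*, with 1 point per library, log axes and a dashed line at a ratio of 1. Open points are M[0] and filled points M[IL-4], with Veh in grey, HC3 in blue and RSM in orange. In each panel the vehicle libraries stand apart from the inhibitor libraries of the same polarization.

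*Arg1* (ENSMUSG00000019987, chr10:24915221-24927484), the cytosolic arginase, had at most 6 counts per library in M[0] and moved in opposite directions with the 2 inhibitors in M[IL-4]. In M[0] its counts were 1, 1 and 5 with Veh, 2, 0 and 2 with HC3, and 5, 2 and 6 with RSM. Among M[IL-4] libraries it had 193, 150.3 and 201 CPM with Veh, 39.9, 51.8 and 59.1 CPM with HC3, and 380.2, 456 and 557 CPM with RSM. The 3 groups of M[IL-4] did not overlap in any library. The log2 fold change was -1.85 ± 0.15 with HC3 (edgeR FDR = 1.69e-08) and 1.36 ± 0.15 with RSM (edgeR FDR = 4.88e-07), and HC3 against RSM gave -3.21 ± 0.16 (edgeR FDR = 1.67e-10).

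IL-4 induced *Arg1* under each pretreatment, by 10.37 ± 0.31 on the log2 scale with Veh (edgeR FDR = 3.43e-14), 9.36 ± 0.37 with HC3 (edgeR FDR = 2.61e-12) and 10.96 ± 0.29 with RSM (edgeR FDR = 5.89e-15). These sizes rest on 7, 4 and 13 counts over the 3 M[0] libraries of Veh, HC3 and RSM, so only the M[IL-4] side of each is well measured. In M[0] the difference from Veh was therefore not resolved at this depth, with 95% intervals of -3.49 to 1.82 for HC3 and -1.29 to 2.82 for RSM. The interaction of inhibitor and IL-4 had intervals of -4.23 to 2.21 for HC3 and -1.78 to 2.96 for RSM, which leaves its direction undetermined.

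*Arg2* (ENSMUSG00000021125, chr12:79130777-79156301), the mitochondrial arginase, was low throughout, with 3 to 26 counts per library. The M[0] libraries had 0.829, 0.999 and 0.538 CPM with Veh, 0.161, 0.358 and 0.316 CPM with HC3, and 0.160, 0.628 and 0.719 CPM with RSM. The M[IL-4] libraries had 0.592, 0.697 and 0.336 CPM with Veh, 0.170, 0.332 and 0.274 CPM with HC3, and 0.815, 1.40 and 1.28 CPM with RSM. All HC3 libraries lay below the vehicle libraries of their polarization, and in M[IL-4] all RSM libraries lay above them. The fall with HC3 in M[0] was called at -1.47 ± 0.50 (edgeR FDR = 0.0234), but the call was lost without replicate 1 (FDR 0.0931), replicate 2 (0.103) or replicate 3 (0.0640).

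In M[IL-4], HC3 against RSM was called for *Arg2* at -2.14 ± 0.49 (edgeR FDR = 0.00584), with an FDR of 0.119 without replicate 3. HC3 against Veh gave -1.04 ± 0.54 (edgeR FDR = 0.138) and RSM against Veh gave 1.09 ± 0.44 (edgeR FDR = 0.0567) there. The latter passed with the replicate block within each polarization (FDR 0.0435). Both arginase genes thus had their lowest M[IL-4] means with HC3 and their highest with RSM, *Arg1* at a level per kb of 209 ± 39.9 with RSM and *Arg2* at 0.815 ± 0.216. Of the exonic length of *Arg2*, 28.1% overlaps *Gm48780* or *Vti1b* on the opposite strand.

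*Nos2* (ENSMUSG00000020826, chr11:78920787-78960254), which makes nitric oxide and citrulline from arginine, did not pass the count filter and was not tested. Its M[0] counts were 0, 0 and 0 with Veh, 0, 1 and 1 with HC3, and 0, 2 and 2 with RSM. In M[IL-4] they were 1, 4 and 0 with Veh, 8, 1 and 2 with HC3, and 4, 0 and 0 with RSM. A library with no count allows up to 0.153 to 0.176 CPM by counting error alone, so no difference was detectable at this depth. The neuronal and endothelial nitric oxide synthases, *Nos1* and *Nos3*, had at most 16 and 10 counts over the 3 libraries of a group.

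*Ass1* (ENSMUSG00000076441, chr2:31470207-31520672) encodes argininosuccinate synthase, which starts the remaking of arginine from citrulline, and it responded to both inhibitors and not detectably to IL-4. M[0] libraries showed 8.52, 7.46 and 8.17 CPM with Veh, 34.3, 48.3 and 36.9 CPM with HC3, and 19.8, 26.5 and 23.3 CPM with RSM. M[IL-4] libraries showed 7.81, 6.74 and 7.78 CPM with Veh, 35.3, 40.9 and 39.4 CPM with HC3, and 21.1, 28.7 and 22.2 CPM with RSM. In both polarizations the order was HC3, RSM, Veh without overlap.

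The log2 fold change of *Ass1* with HC3 was 2.31 ± 0.15 in M[0] (edgeR FDR = 3.66e-10) and 2.37 ± 0.15 in M[IL-4] (edgeR FDR = 5.01e-10), and with RSM it was 1.53 ± 0.15 (edgeR FDR = 1.32e-07) and 1.69 ± 0.15 (edgeR FDR = 4.10e-08). It was the only member called in all 4 comparisons of inhibitor with vehicle. The IL-4 effect was -0.11 with Veh, -0.05 with HC3 and 0.05 with RSM, with 95% intervals of -0.45 to 0.23, -0.33 to 0.23 and -0.24 to 0.33. Of the longest protein-coding transcript of *Ass1*, 73.1% is near-identical to the pseudogene *Gm5424*, so its level depends on how pairs matching both were handled. *Asl*, which completes the same route to arginine, was lower at the FDR alone with HC3 (log2 fold change -0.43 in M[0], -0.30 after IL-4) and with RSM in M[0] (-0.32), and it was called in no comparison with vehicle. It was the 1 tested gene of the 4 in the urea cycle list.

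*Odc1* (ENSMUSG00000011179, chr12:17544794-17551505) encodes ornithine decarboxylase, the entry step to the polyamines, and it rose with HC3 in both polarizations and with RSM in M[0]. Without IL-4 (M[0]) it had 56.8, 52.6 and 56.5 CPM with Veh, 169, 159 and 149 CPM with HC3, and 135, 112 and 122 CPM with RSM. With IL-4 it had 82.5, 69.8 and 76.0 CPM with Veh, 169.9, 156 and 158 CPM with HC3, and 136, 121 and 135 CPM with RSM. Neither inhibitor overlapped Veh, and the HC3 libraries lay above the RSM libraries in both polarizations. The log2 fold change with HC3 was 1.52 ± 0.08 in M[0] (edgeR FDR = 2.24e-11) and 1.08 ± 0.08 in M[IL-4] (edgeR FDR = 3.05e-09). With RSM it was 1.15 ± 0.08 (edgeR FDR = 1.20e-09) and 0.78 ± 0.08 (edgeR FDR = 2.04e-07), the latter under the fold threshold.

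*Oat* (ENSMUSG00000030934, chr7:132557478-132576398), the mitochondrial ornithine aminotransferase that sends ornithine towards glutamate and proline, varied little between groups. Its 18 libraries ranged from 109 to 136 CPM, with group means of 124 ± 4.37 CPM in Veh M[0] and 131 ± 4.99 CPM in Veh M[IL-4]. HC3 and RSM in M[IL-4] gave log2 fold changes of -0.22 ± 0.05 (edgeR FDR = 0.00323) and -0.25 ± 0.05 (edgeR FDR = 0.00109), with all inhibitor libraries below the vehicle libraries and an FDR of 0.0685 for HC3 without replicate 3. In M[0] the 95% interval was -0.15 to 0.08 for HC3 and -0.24 to -0.02 for RSM (edgeR FDR = 0.0632, or 0.0271 with the replicate block within each polarization). Per kb of exon, the ratio of *Odc1* to *Oat* in M[0] was 0.309 ± 0.0188 with Veh, 0.910 ± 0.0684 with HC3 and 0.750 ± 0.0596 with RSM. In M[IL-4] this ratio was 0.403 ± 0.0436 with Veh, 0.994 ± 0.0565 with HC3 and 0.821 ± 0.0501 with RSM.

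*Srm* (ENSMUSG00000006442, chr4:148591503-148594993), spermidine synthase, was higher with the inhibitors. M[0] levels were 24.0, 22.3 and 27.6 CPM with Veh, 51.7, 54.5 and 64.5 CPM with HC3, and 48.5, 43.6 and 54.1 CPM with RSM. M[IL-4] levels were 41.8, 33.1 and 35.6 CPM with Veh, 65.9, 49.1 and 55.5 CPM with HC3, and 57.8, 38.2 and 48.1 CPM with RSM. The RSM and Veh libraries overlapped in M[IL-4] and nowhere else. Its log2 fold change was 1.21 ± 0.15 with HC3 in M[0] (edgeR FDR = 1.85e-06), which was called, and 0.98 ± 0.15 with RSM (edgeR FDR = 2.29e-05), which reached 1.04 with scaling by library size only. In M[IL-4] it was 0.62 ± 0.14 with HC3 (edgeR FDR = 0.00175) and 0.38 ± 0.14 with RSM (edgeR FDR = 0.0417, but 0.116 without replicate 1 and 0.214 without replicate 3).

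*Sms* (ENSMUSG00000071708, chrX:157443855-157492287), spermine synthase, was lower with the inhibitors. Expression in M[0] was 60.5, 64.1 and 56.8 CPM with Veh, 49.8, 45.6 and 45.3 CPM with HC3, and 47.1, 41.8 and 44.2 CPM with RSM. Its M[IL-4] expression was 71.8, 80.4 and 77.7 CPM with Veh, 54.5, 58.3 and 55.8 CPM with HC3, and 44.2, 49.2 and 47.0 CPM with RSM. All inhibitor libraries lay below the vehicle libraries of their polarization, yet no comparison reached the fold threshold. The log2 fold changes in M[0] were -0.37 ± 0.07 with HC3 (edgeR FDR = 0.000290) and -0.45 ± 0.07 with RSM (edgeR FDR = 3.94e-05). With IL-4 they were -0.45 ± 0.07 with HC3 (edgeR FDR = 3.76e-05) and -0.71 ± 0.07 with RSM (edgeR FDR = 1.27e-07). A pseudogene, *Sms-ps*, is near-identical over 29.6% of the longest protein-coding transcript of *Sms*.

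Per kb of exon, *Srm* exceeded *Sms* in all 18 libraries, an order that depends on the exon lengths used (1599 bases for *Srm*, 6010 for *Sms*). In CPM, *Sms* was instead the higher with vehicle, at means of 60.5 against 24.6 in M[0] and 76.6 against 36.8 in M[IL-4]. The ratio of *Srm* to *Sms* per kb was 1.54 ± 0.264 in Veh M[0] and 1.82 ± 0.333 in Veh M[IL-4], against 4.58 ± 0.727 and 3.82 ± 0.696 with HC3 and 4.13 ± 0.408 and 3.89 ± 1.00 with RSM. Its lowest inhibitor value, 2.92 in RSM M[IL-4], was above its highest vehicle value of 2.19.

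IL-4 with vehicle changed 3 tested members, *Arg1*, *Slc7a2* and *Slc7a1*, all upward (6.66% of all tested genes were called, 2.83% upward). *Slc7a1* rose by 1.11 ± 0.08 on the log2 scale (edgeR FDR = 8.46e-09). *Odc1*, *Srm* and *Sms* were higher at the FDR alone, by 0.46 ± 0.08 (edgeR FDR = 0.000213), 0.58 ± 0.15 (edgeR FDR = 0.00530) and 0.34 ± 0.07 (edgeR FDR = 0.000826), with FDRs of 0.0541 for *Srm* without replicate 1 and 0.0818 for *Sms* without replicate 3. At the FDR alone 6 members passed, all upward (31% of all genes), and the libraries did not overlap for 6 members (40.8% of all genes).

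Under HC3, IL-4 changed 2 members (3.97% of all genes, 1.82% upward), and under RSM also 2 (4.26%, 2.45% upward), which were *Arg1* and *Slc7a2* each time. At the FDR alone 4 members passed under HC3 (14.7% of all genes) and 2 under RSM (15.5%), and the libraries did not overlap for 5 (30.5%) and 3 (31.7%) members. *Slc7a1* then differed between M[IL-4] and M[0] by 0.29 ± 0.08 with HC3 (edgeR FDR = 0.0181, 0.0559 without replicate 1 and 0.274 without replicate 3) and by 0.09 with RSM, with a 95% interval of -0.08 to 0.25. The IL-4 effect on *Odc1* was 0.02 with HC3 and 0.09 with RSM (95% intervals -0.14 to 0.19 and -0.07 to 0.25), and that on *Srm* was -0.00 and -0.02 (-0.30 to 0.29 and -0.32 to 0.27). *Sms* differed by 0.26 ± 0.07 with HC3 (edgeR FDR = 0.0158, 0.108 without replicate 2 and 0.243 without replicate 3) and by 0.08 with RSM (95% interval -0.07 to 0.22). The levels of *Slc7a1*, *Odc1* and *Srm* in M[0] with either inhibitor were already above those of Veh M[IL-4] in every library.

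**Figure D4:**
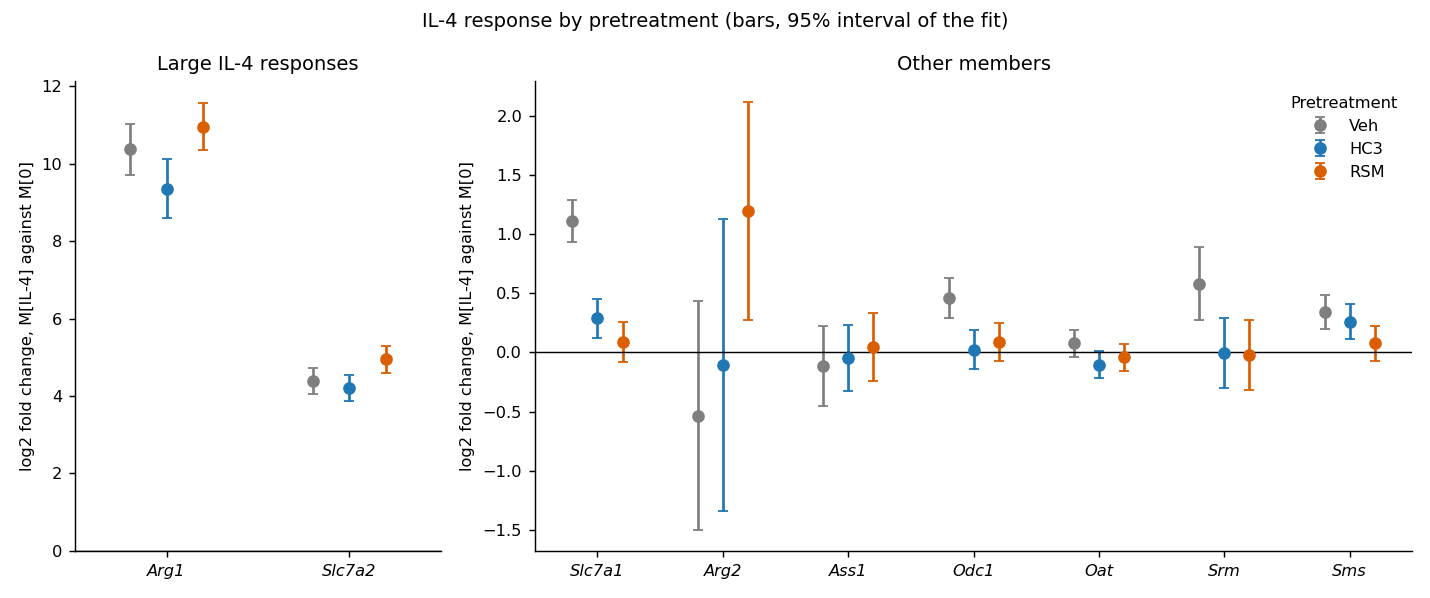
Log2 fold change of M[IL-4] against M[0] for each tested member after Veh (grey), HC3 (blue) or RSM (orange), where bars are 95% intervals of the edgeR fit. *Arg1* and *Slc7a2*, drawn on their own axis, were induced under all 3 pretreatments. *Slc7a1*, *Odc1* and *Srm* were higher with IL-4 after Veh, and their values after RSM lay near 0.

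These differences in the IL-4 effect were tested as interactions. With RSM, 1 member was called (2.14% of all genes, 0.921% downward), which was *Slc7a1* at -1.02 ± 0.11 (edgeR FDR = 1.50e-05). With HC3, edgeR called 0 members (1.24% of all genes), DESeq2 called 0, and 4 had an unadjusted edgeR p under 0.05. At the FDR alone 2 members passed for each inhibitor, *Slc7a1* and *Odc1* (6.48% of all genes for HC3 and 9.19% for RSM). For HC3, *Slc7a1* had an interaction of -0.82 ± 0.11 (edgeR FDR = 0.000233) and *Odc1* of -0.44 ± 0.11 (edgeR FDR = 0.0235), and with RSM *Odc1* had -0.37 ± 0.11 (edgeR FDR = 0.0422). The *Odc1* interactions lost an FDR under 0.05 without any 1 of the 3 replicates, and that with RSM also with scaling by library size only (0.0678).

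*Srm* had interactions of similar size with wider errors, -0.58 ± 0.20 with HC3 (edgeR FDR = 0.0993) and -0.60 ± 0.20 with RSM (edgeR FDR = 0.0750). Both passed the FDR with the replicate block within each polarization (4.83e-05 and 2.14e-05), the block over all libraries (0.0120 and 0.00762), DESeq2 (0.0496 and 0.0269) and no count filter (0.00102 and 0.000212). The same block gave an FDR of 0.00451 for *Slc7a2* with RSM (0.57 ± 0.22, edgeR FDR = 0.119 without it, 0.0328 without replicate 1 and 0.000553 with no count filter) and of 0.0202 for *Sms* with RSM (-0.27 ± 0.10, edgeR FDR = 0.107 without it). *Ass1* had interactions of 0.06 and 0.16, with 95% intervals of -0.37 to 0.50 and -0.28 to 0.60.

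HC3 and RSM were set against each other at their own concentrations, which differ, so these are differences between 2 treatments and not between 2 compounds at a matched dose. In M[0], edgeR called 0 members (3.04% of all genes) and DESeq2 called 0, with 3 at an unadjusted edgeR p under 0.05. These were *Ass1* (0.78 ± 0.14, edgeR FDR = 0.000532), *Odc1* (0.37 ± 0.08, edgeR FDR = 0.00275) and *Slc7a1* (0.28 ± 0.08, edgeR FDR = 0.0223), each higher with HC3 and each past the FDR alone (13.6% of all genes), and for these 3 members the libraries did not overlap (31.6%). The *Slc7a1* value had FDRs of 0.157 and 0.146 without replicates 1 and 3, and the *Odc1* value one of 0.0762 without replicate 3. In M[IL-4], 2 members were called (2.8% of all genes, 1.59% downward), which were *Arg1* and *Arg2*, both lower with HC3. At the FDR alone 7 members passed (13% of all genes), and the libraries did not overlap for 7 (28.5%).

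The members that were higher with HC3 than with RSM in M[IL-4] were *Ass1* (0.68 ± 0.14, edgeR FDR = 0.00182), *Slc7a1* (0.48 ± 0.08, edgeR FDR = 0.000313), *Odc1* (0.31 ± 0.08, edgeR FDR = 0.0114) and *Sms* (0.26 ± 0.07, edgeR FDR = 0.0151), all under the fold threshold. *Slc7a2* was lower (-0.55 ± 0.13, edgeR FDR = 0.00925). Without replicate 3 the FDR of *Ass1*, *Odc1*, *Sms* and *Slc7a2* lay between 0.142 and 0.230, and without replicate 1 that of *Sms* was 0.0648. For *Srm*, the 95% interval was -0.07 to 0.52 in M[0] and -0.05 to 0.54 in M[IL-4], and the replicate block within each polarization gave FDRs of 0.00685 and 0.00329. *Oat* had intervals of -0.02 to 0.21 and -0.08 to 0.15. *Slc7a1*, *Ass1* and *Odc1* were thus higher with HC3 in both polarizations, and both arginase transcripts were higher with RSM in M[IL-4].

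Ordered by level per kb of exon, the members changed places between the groups of M[IL-4]. The order within a group depends on the exon lengths used. With Veh the order began with *Arg1* (81.4 ± 12.2 CPM per kb), *Oat* (55.6 ± 2.11) and *Slc7a2* (36.1 ± 2.71), followed by *Srm* (23.0 ± 2.81) and *Odc1* (22.3 ± 1.86), whose values lay within their spread of each other. With HC3 *Oat* (47.7 ± 1.06) and *Odc1* (47.4 ± 2.16) led without differing beyond their spread, ahead of *Srm* (35.5 ± 5.30), while *Arg1* (22.6 ± 4.36) and *Slc7a2* (22.0 ± 2.45) were again within their spread of each other. With RSM *Arg1* (209 ± 39.9) stood above *Oat* (46.7 ± 0.448) and *Odc1* (38.4 ± 2.57). The lowest levels were those of *Nos2* and *Arg2*, at means of at most 0.0467 and 0.815. *Ass1* had 3.08 ± 0.253 CPM per kb with Veh, 16.0 ± 1.21 with HC3 and 9.94 ± 1.70 with RSM, below *Sms* with Veh (12.7 ± 0.736) and above it with HC3 (9.35 ± 0.327), while with RSM the means of *Ass1* and *Sms* (7.78 ± 0.420) were closer.

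The genes whose log2 CPM followed *Arg1* most closely over the 18 libraries, among 12377 with a mean of at least 1 CPM, were *Ap2m1* (Pearson's r = 0.990), *Msx3* (0.990), *Gm13509* (0.989), *Mgl2* (0.985) and *Kcnd3* (0.983). For *Slc7a2* they were *Tmem26* (r = 0.992), *Pdcd1lg2* (0.991), *Chil3* (0.984), *Cldn11* (0.983) and *Rnf19b* (0.982). The points share the split between M[0] and M[IL-4], so these values are a description of libraries that fall into 2 sets. No such genes are given for *Nos2*, which was not tested.

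The wider pathway was described with 70 further genes in 8 lists, of which 52 were tested. With HC3, 6 rose and 5 fell in M[0] (21.2% called, against 12% of all tested genes) and 6 rose and 4 fell in M[IL-4] (19.2%, against 10.3%). With RSM, 8 rose and 4 fell in M[0] (23.1%, against 11.6%) and 7 rose and 4 fell in M[IL-4] (21.2%, against 11%). Median log2 fold changes of the 52 were -0.13, -0.11, -0.11 and 0.06 for HC3 in M[0], RSM in M[0], HC3 in M[IL-4] and RSM in M[IL-4], and for all tested genes they were 0.02, 0.01, 0.01 and 0.02. IL-4 with vehicle raised *Gatm*, *Azin2* and *Eif5a* and lowered *Slc7a7* (7.69% of the 52, against 6.66% of all genes). Under HC3 and under RSM it raised *Gatm* and *Azin2* and lowered *P4ha2* (5.77% each, against 3.97% and 4.26%).

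**Figure D5:**
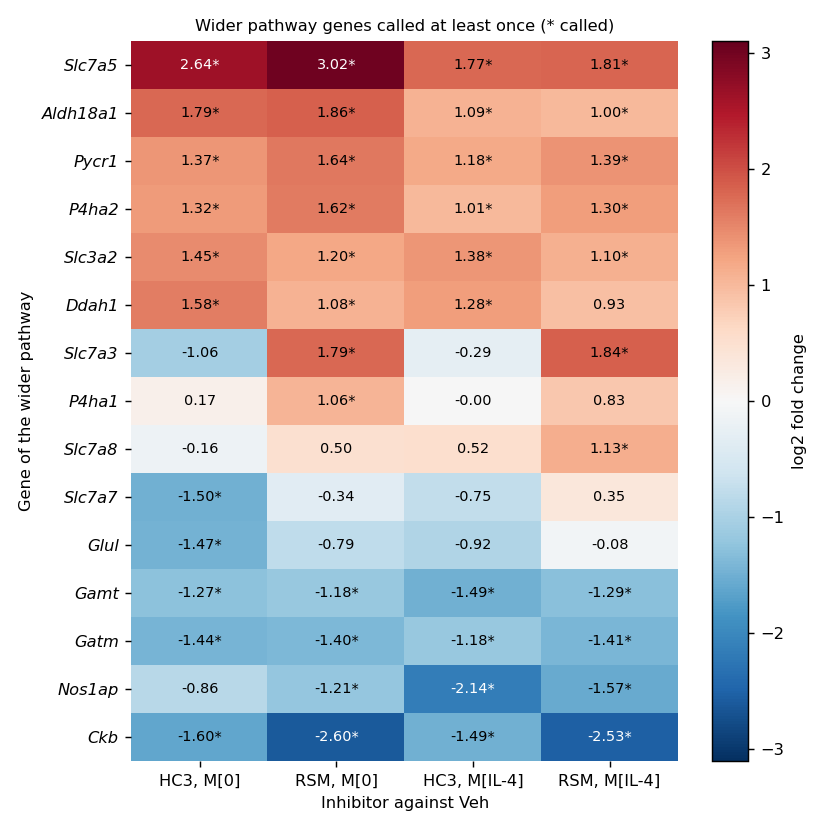
Log2 fold change against Veh of the 15 wider pathway genes called in at least 1 comparison of an inhibitor with vehicle, with asterisks on calls. *Slc7a5*, *Aldh18a1*, *Pycr1*, *P4ha2* and *Slc3a2* were called upward and *Gamt*, *Gatm* and *Ckb* downward in all 4 comparisons.

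Among 9 tested genes of the transport list, 2 rose and 1 fell with HC3 in M[0], 3 rose with RSM in M[0], and 2 and 4 rose with HC3 and RSM in M[IL-4]. The shares called were 33.3%, 33.3%, 22.2% and 44.4% of the list, against 12%, 11.6%, 10.3% and 11% of all tested genes. *Slc7a5*, the light chain of a large neutral amino acid exchanger, rose by 2.64 ± 0.14 and 3.02 ± 0.14 on the log2 scale with HC3 and RSM in M[0], from 13.0 ± 2.04 CPM with Veh. After IL-4 its log2 fold changes were 1.77 ± 0.13 and 1.81 ± 0.13. *Slc3a2*, the heavy chain that pairs with it and with the cationic exchangers, rose by 1.45 ± 0.08 and 1.20 ± 0.08 in M[0], and after IL-4 by 1.38 ± 0.08 and 1.10 ± 0.08. *Slc7a7*, a partner that exports arginine, instead fell with HC3 in M[0] (-1.50 ± 0.11), and IL-4 with vehicle lowered it too (-1.30 ± 0.10). Under the fold threshold it had -0.34 ± 0.10 with RSM in M[0], -0.75 ± 0.11 with HC3 in M[IL-4] and, in the other direction, 0.35 ± 0.11 with RSM in M[IL-4] (edgeR FDR = 0.0149, 0.310 without replicate 3). *Slc7a3*, a further cationic transporter, was called upward with RSM in both polarizations at means of at most 1.30 CPM, and its M[0] call was lost without replicate 3 (FDR 0.0798). *Slc7a8*, another neutral exchanger chain, was called with RSM in M[IL-4] (1.13, and 0.95 without replicate 2).

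In the list of ornithine, proline and glutamate enzymes, 3 of 11 rose and 1 fell with HC3 in M[0], 4 rose with RSM in M[0], and 3 rose with either inhibitor in M[IL-4]. The shares called were 36.4% with either inhibitor in M[0] (12% and 11.6% of all tested genes) and 27.3% in M[IL-4] (10.3% and 11%). *Aldh18a1*, the first enzyme from glutamate towards proline and ornithine, rose by 1.79 ± 0.11 and 1.86 ± 0.11 with HC3 and RSM in M[0]. After IL-4 it rose by 1.09 ± 0.11 and 1.00 ± 0.11, where the RSM call was lost without replicate 1 (0.96) and with DESeq2 (0.98), no count filter (0.99) or the replicate block over all libraries (just under 1). *Pycr1*, the last step to proline, rose by 1.37 ± 0.26, 1.64 ± 0.25, 1.18 ± 0.26 and 1.39 ± 0.26 in the same order. *P4ha2*, a subunit of the prolyl hydroxylase of collagen, rose by 1.32 ± 0.17, 1.62 ± 0.17, 1.01 ± 0.18 and 1.30 ± 0.17, with 0.90 for HC3 in M[IL-4] without replicate 3 and a value just under 1 with DESeq2. *P4ha1* of the same enzyme was called with RSM in M[0] alone of the 4 comparisons (1.06 ± 0.08, and 0.96 without replicate 2). *Glul*, glutamine synthetase, fell with HC3 in M[0] (-1.47 ± 0.06).

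Creatine synthesis uses arginine as a substrate, and 3 of 4 tested genes of its list fell in each of the 4 comparisons. This was 75% of a short list, against 10.3% to 12% of all tested genes called in either direction. *Gatm*, which moves the amidino group of arginine to glycine, had log2 fold changes of -1.44 ± 0.06 and -1.40 ± 0.06 with HC3 and RSM in M[0], and after IL-4 of -1.18 ± 0.06 and -1.41 ± 0.06. *Gamt*, which completes creatine, had -1.27 ± 0.17, -1.18 ± 0.16, -1.49 ± 0.17 and -1.29 ± 0.17 in the same order. *Ckb*, the brain-type creatine kinase, had -1.60 ± 0.12, -2.60 ± 0.12, -1.49 ± 0.12 and -2.53 ± 0.12. IL-4 induced *Gatm* by 2.59 ± 0.06 with Veh, 2.84 ± 0.06 with HC3 and 2.57 ± 0.06 with RSM, and its mean in M[IL-4] was 329.9 ± 15.1 CPM with Veh, 146 ± 4.86 CPM with HC3 and 124 ± 5.98 CPM with RSM.

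Of the 7 tested regulators of polyamine synthesis, edgeR and DESeq2 called 0 in each of the 4 comparisons of an inhibitor with vehicle. There 3, 3, 4 and 4 had an unadjusted edgeR p under 0.05. Over all tested genes, 44.1%, 41.1%, 38.8% and 38.6% passed even the stricter FDR alone in the same order, so such counts do not set a list apart. *Azin1*, which releases ornithine decarboxylase from its antizyme, was higher with HC3 at the FDR alone, by 0.65 ± 0.06 in M[0] (edgeR FDR = 5.57e-08) and 0.66 ± 0.06 in M[IL-4] (edgeR FDR = 6.52e-08). With RSM it had -0.01 ± 0.06 and 0.16 ± 0.06. *Oaz1*, the antizyme, had -0.36 ± 0.11 and -0.27 ± 0.11 with HC3 and RSM in M[0], and after IL-4 -0.56 ± 0.11 and -0.46 ± 0.11. Of its longest protein-coding transcript, 63.6% is near-identical to *Oaz1-ps*. *Azin2* followed IL-4, which raised it by 1.72 ± 0.19 with Veh, 1.53 ± 0.19 with HC3 and 2.24 ± 0.19 with RSM.

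The lists of polyamine breakdown and transport (7 tested genes) and of eIF5A and its hypusination (4 tested) had 0 calls by edgeR and by DESeq2 in the same 4 comparisons. The numbers with an unadjusted edgeR p under 0.05 were 4, 4, 5 and 5 for breakdown and transport. They were 3, 3, 2 and 2 for eIF5A, the protein modified with a group from spermidine. These counts too stand against 38.6% to 44.1% of all tested genes that passed the FDR alone. *Eif5a* itself was raised by IL-4 with vehicle (1.05 ± 0.07, and 0.99 without replicate 1 or with scaling by library size only). *Smox*, which oxidizes spermine, had -0.99 ± 0.10 there, and was called without replicate 1 (-1.14) and with scaling by library size only (-1.04). In the list of nitric oxide synthases, their cofactor and inhibitors, 9 genes were tested. In each comparison of an inhibitor with vehicle 1 or 2 were called (11.1% or 22.2%, against 10.3% to 12% of all tested genes). Among them was *Ddah1*, which degrades methylated arginines (1.58 ± 0.30 with HC3 in M[0]). Its call with RSM in M[0] was lost without replicate 1 or replicate 3, and that with HC3 in M[IL-4] without replicate 3. *Nos1ap* was also called (-2.14 with HC3 in M[IL-4], at 3.30 ± 0.797 CPM with Veh).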

How the data were processed

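RNA-seq libraries of 18 samples were grouped by the labels. Per the methods, adapters were trimmed with fastp, STAR aligned pairs to GRCm38 in local mode, pairs with a mapping quality of 40 were kept, duplicates were marked and kept with Picard, and featureCounts counted exons. The deposited values are raw counts per gene without normalization. The annotation release and strand setting are not given in the sources used here. Names and positions came from GENCODE M21 (55144 of 55385 genes matched).

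Tests used edgeR 4.0.16 (R 4.3.3), with TMM scaling, glmQLFit and glmQLFTest, in 1 joint fit that gave each group its coefficient, without covariates. Each SE was derived from the F statistic. The 11 contrasts were adjusted by Benjamini-Hochberg over 14979 genes. CPM per kb used the summed length of all annotated exons of a gene, so orders between genes depend on that length. Alternatives were a replicate block, a block within each polarization, DESeq2 1.42.0, no count filter, library size scaling, and leaving out each replicate. The comparison steps were tested on simulated data for HC3 against Veh in M[0] (14979 genes, 200 changed). Genes were scored there at an FDR under 0.05 alone, without the fold threshold of a call. By that rule 64 of 66 genes with a 4-fold change, 55 of 67 with a 2-fold and 44 of 67 with a 1.5-fold change were found. Of the unchanged genes, 5 passed falsely.

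Named genes are the 10 members, wider pathway genes called in at least 1 inhibitor comparison, and *Azin1*, *Oaz1* and *Slc3a2*. *Asl*, *Azin2*, *Eif5a*, *Nos1*, *Nos3* and *Smox* were added after their values were seen. Members and lists were chosen with earlier results of these data known. Labels name 3 mice but do not say that a number marks one, and they give no batch. Same-numbered libraries of 1 polarization deviated together (r of 0.110 to 0.372 in 18 of 18 pairs, against 1 of 36 differently numbered pairs over 0.1), so the numbers pair libraries within a polarization. The reported fit has no block, as the study's methods name none, and the blocked value stands beside each member result whose side of the threshold it changes. Across polarizations 12 of 27 same-numbered pairs were over 0.1, against 10 of 54 differently numbered pairs, so pairing there is less clear. Between replicates, chi-square per gene was 6.30 to 20.3 (about 1 under counting error alone). Intervals and limits at 0 counts cover counting error or the spread between these samples only.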

Additional observations from a re-analysis of the deposited data

Results flagged for a closer look

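The results below are interactions, in which the response to an inhibitor was tested for a difference between M[0] and M[IL-4] with edgeR over all genes. *Slc7a1* responded less in M[IL-4] than in M[0], by -0.82 on the log2 scale for HC3 and -1.02 for RSM, and it did so in each setting tried. *Odc1* did too, by -0.44 for HC3 and -0.37 for RSM, but its FDRs of 0.0235 and 0.0422 became 0.0571 to 0.276 and 0.0503 to 0.298 on leaving out 1 replicate, and 0.0678 for RSM with library size scaling. *Srm* had interactions of -0.58 and -0.60 that missed the threshold without a block (FDR 0.0993 and 0.0750) and passed it with the replicate block within each polarization (4.83e-05 and 2.14e-05). In vehicle all 3 genes were already higher in M[IL-4] than in M[0], and the vehicle libraries enter both interactions of a gene.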

How the results depend on the processing

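Over the alternatives, 1434 of 1482 values for named genes kept their direction and whether they were called, 18 lost a call, 11 gained one and 19 changed sign. Counts of members called stayed within 1.5 times their value, except for RSM against Veh in M[IL-4] (2 members, 4 with library size scaling, 2 to 4 on leaving out a replicate) and HC3 against RSM in M[IL-4] (2 members, 1 to 2 on leaving out a replicate, with 1 without replicate 3). The replicate block, over all libraries or within each polarization, changed no sign and raised the former count to 3 by adding *Arg2* (1.07, FDR 0.0409 over all libraries). For M[IL-4] against M[0] the labels do not say whether same-numbered samples are paired, and there the block over all libraries called *Arg2* with RSM (1.21, FDR 0.0408).

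The 19 sign changes concerned values near 0 or, for *Arg1*, few counts, and none was called. On leaving out a replicate, HC3 against Veh in M[0] ranged from -0.096 to 0.013 for *Oat* and from -0.22 to 0.080 for *Azin2*, and in M[IL-4] from -0.0585 to 0.061 for *P4ha1*. IL-4 under HC3 ranged from -0.12 to 0.077 for *Ass1*, -0.0042 to 0.056 for *Odc1* and -0.18 to 0.11 for *Srm*. IL-4 under RSM ranged from -0.0054 to 0.10 for *Ass1*, -0.19 to 0.060 for *Srm* and -0.010 to 0.15 for *Sms*, and the RSM interaction of *Arg1* from -0.30 to 1.25. With library size scaling, *Oat* had 0.0055 and *Azin1* with RSM 0.042 in M[0], *P4ha1* had 0.045 with HC3 in M[IL-4], and IL-4 gave -0.023 for *Odc1* under HC3 and -0.015 for *Ass1* under RSM. *Srm* for IL-4 under HC3 was 0.0034 with DESeq2 and 0.022 with no count filter. Depth limits *Nos2* throughout, *Arg1* in M[0] and *Arg2*, whose values rest on 3 to 26 counts per library. The causes of these shifts were not tested.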
